A study of Homo sapiens with 6 samples.

Results

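A set of 29 genes of cholesterol synthesis, uptake and efflux was followed in BT-549 cells after silencing of IRF1. The genes were picked by their known roles and matched by symbol, all 29 symbols were found among the 37887 listed in the count table, and 27 had enough reads to be tested. It holds 19 enzymes that build cholesterol from acetyl-CoA units, 5 genes that control the sterol-sensing transcription factors SREBP1 and SREBP2, the sterol carrier STARD4, and 4 genes of cholesterol export and oxysterol signalling (ABCA1, ABCG1, MYLIP and CH25H). The list does not cover the whole pathway, and of uptake it holds only MYLIP, a ubiquitin ligase that lowers lipoprotein uptake.

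BT-549 is a long-established cell line from a triple-negative breast tumour, and IRF1 is a transcription factor of the interferon response. RNA from cells cultured in triplicate was sequenced in 3 control samples, given 0.1% DMSO, and 3 IRF1shRNA samples, which carried an IRF1 short hairpin RNA and were given 500 ng/ml doxycycline, the drug that switches on the tet vector. The latter are also called silenced samples here. Titles of the control samples mention a control shRNA, but the series description has a single tet-IRF1 shRNA line that received DMSO or the drug. Since the drug went only to the silenced cells and DMSO is named only for the controls, their own effects and those of the hairpin cannot be told apart. If the controls were a separate control shRNA line, a difference between the lines cannot be told apart either. One hairpin was used, the vector carries puromycin resistance, and the length of the doxycycline treatment for this experiment was not given in the sources used here.

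Cells sense cholesterol in the membrane of the endoplasmic reticulum. When it is scarce, SCAP escorts the SREBP proteins, encoded by SREBF1 and SREBF2, to the Golgi, where proteases release a fragment that enters the nucleus and switches on the synthesis enzymes, often together with the factor NF-Y, which binds CCAAT boxes. When sterols are plentiful, the INSIG proteins hold SCAP and the SREBPs back. Oxysterols such as the product of CH25H strengthen that brake and also activate the liver X receptors (LXR), which induce the exporters ABCA1 and ABCG1, MYLIP and SREBF1. Interferon is known to induce CH25H in myeloid cells and to lower sterol synthesis there.

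The libraries held between 55143808 and 160436234 counts, with IRF1shRNA replicate 2 the shallowest. The silenced gene was lower in every IRF1shRNA sample, with 48.3 ± 3.14 CPM in control and 14.4 ± 0.601 CPM in silenced samples (n = 3 each, ± SD), or 29.9% of control. CPM here is a library's count scaled to a common library total, with TMM factors. Of the markers of the line, VIM, CDH2 and ZEB1 averaged at least 79.4 CPM in each group, though VIM was lower in every silenced sample (918 ± 28.6 against 625 ± 32.9 CPM, SD, n = 3 each), while CDH1, EPCAM, ESR1 and PGR averaged at most 0.676 CPM and PTPRC, PECAM1 and ALB at most 0.526 CPM. Over all genes, 50.5% of the 18851 tested passed an adjusted p under 0.05 (24.1% higher and 26.4% lower in IRF1shRNA samples), by the quasi-likelihood test of edgeR, adjusted over all genes by Benjamini-Hochberg, which is the test meant wherever an adjusted p is given.

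The promoters of 25 of the 29 genes were found in the RefSeq table (build GRCh38.p14), as windows of 250 bases before to 50 bases after the start. A CCAAT box, on either strand, was present in 16 of the 25, against 34.6% of all 35116 promoters. By result of the test, the box was found in 12 of 15 genes that fell, 1 of 3 that rose and 3 of 6 that did not pass. The sterol regulatory element core TCACNCCAC, on either strand, was found only in SREBF2 among the 25 (as TCACCCCAC) and in 1.13% of all promoters. The core of the interferon-regulatory factor element (a repeat of GAAA with 2 free bases between), in 3.57% of all promoters, was found in none of the 25, nor was the LXR direct repeat with a 4-base spacer, in 0.0199% of them. These are matches of letters within a short window, and say nothing about binding or about elements outside it. The stretches below lie before the start of 4 genes whose transcripts fell and of INSIG2, the paralog of INSIG1, which did not pass the test. They leave out bases covered by an annotated exon, and capitals mark CCAAT boxes (ATTGG on the other strand).
STARD4, chr5:111512591-111512785, minus strand: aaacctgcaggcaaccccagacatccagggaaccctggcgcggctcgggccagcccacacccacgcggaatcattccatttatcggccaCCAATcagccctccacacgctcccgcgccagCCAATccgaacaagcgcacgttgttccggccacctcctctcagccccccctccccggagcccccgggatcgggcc
MSMO1, chr4:165327419-165327622, plus strand: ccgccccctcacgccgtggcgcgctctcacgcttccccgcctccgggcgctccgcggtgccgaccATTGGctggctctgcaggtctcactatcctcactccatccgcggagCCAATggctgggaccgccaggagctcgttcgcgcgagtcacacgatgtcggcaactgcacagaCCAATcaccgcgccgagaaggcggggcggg
HMGCS1, chr5:43313513-43313662, minus strand: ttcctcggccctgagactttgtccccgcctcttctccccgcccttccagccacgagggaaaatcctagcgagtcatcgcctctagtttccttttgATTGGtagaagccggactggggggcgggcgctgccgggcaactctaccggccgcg
INSIG1, chr7:155297628-155297775, plus strand: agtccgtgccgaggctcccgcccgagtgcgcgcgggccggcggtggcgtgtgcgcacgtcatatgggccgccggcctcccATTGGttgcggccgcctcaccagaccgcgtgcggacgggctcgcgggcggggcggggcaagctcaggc
INSIG2, chr2:118088221-118088451, plus strand: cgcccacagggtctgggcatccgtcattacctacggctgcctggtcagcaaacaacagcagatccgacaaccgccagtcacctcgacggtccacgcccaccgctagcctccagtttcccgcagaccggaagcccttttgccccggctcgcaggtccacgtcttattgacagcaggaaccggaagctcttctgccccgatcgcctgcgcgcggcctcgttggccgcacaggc

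Most of the cholesterol genes were modestly lower after IRF1 silencing. Of the 27 tested, 17 fell, 4 rose and 6 did not pass the test, and in 21 of the 27 no silenced sample overlapped the control range, against 56.8% of all genes. The share that passed was 77.8%, against 50.5% of all genes and 66% of the 10316 genes in the same range of mean abundance as the synthesis enzymes (3.41 to 227 CPM). The share that fell was 63.0%, against 26.4% of all genes and 36% of genes in that range. The median log2 fold change of the 27 genes was −0.31, against −0.0024 for all genes tested and −0.028 for genes in that range. STARD4 and EBP were the 2 genes past the test with a change over 2-fold, which 7.86% of all genes showed, and with FDFT1 there were 3 over 1.5-fold, against 17.7% of all genes. The rises reached 1.35-fold at most. By role, the median log2 fold change was −0.25 for the 8 enzymes of the early mevalonate pathway, −0.31 for the 11 enzymes of the sterol branch and −0.27 for the 5 SREBP control genes.

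**Figure D1:**
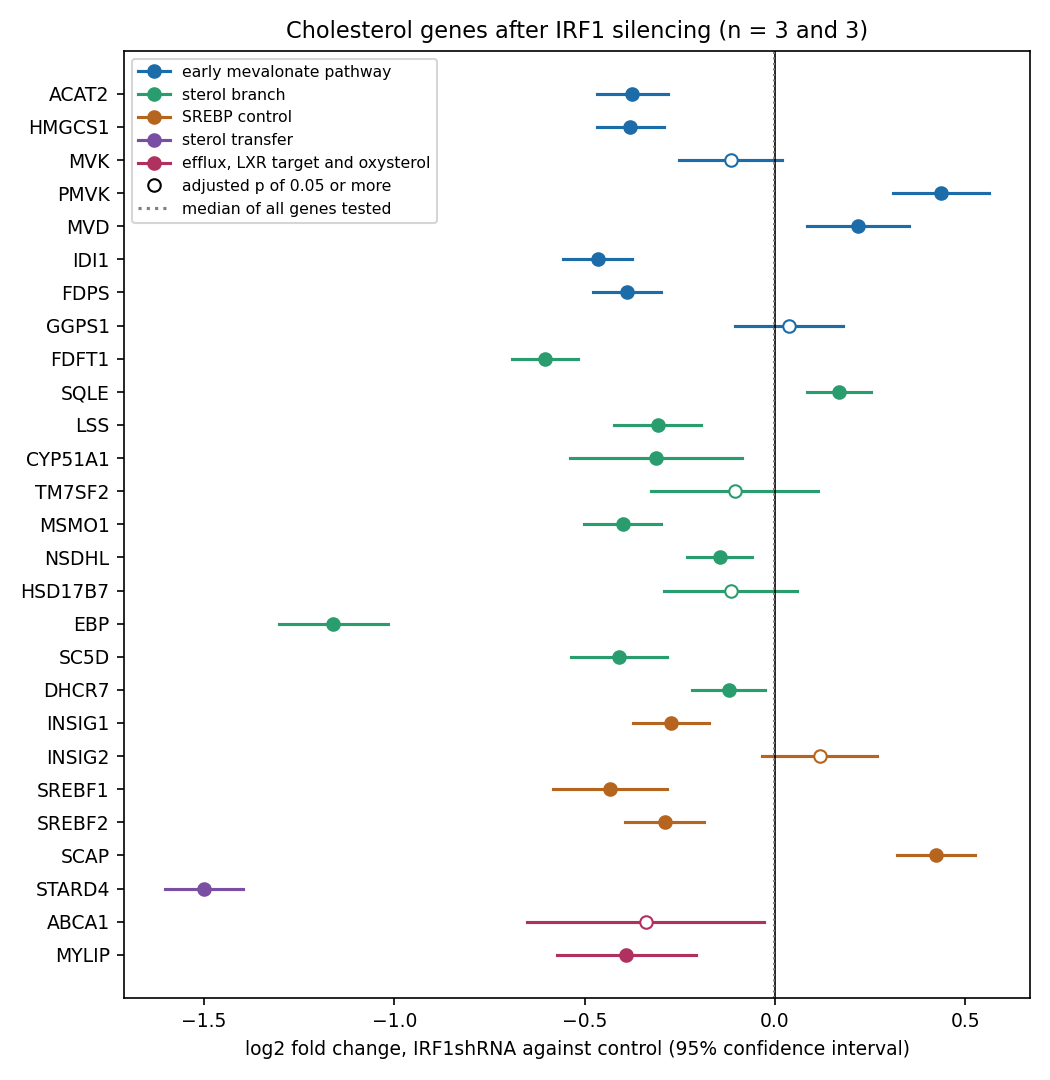
Log2 fold change of IRF1shRNA against control for the 27 tested genes, with 95% confidence intervals, coloured by role, with open circles for genes whose adjusted p was 0.05 or more. STARD4 at −1.50 and EBP at −1.16 stand apart on the left, and PMVK, MVD, SQLE and SCAP are the filled points to the right of 0.

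The early mevalonate pathway turns acetyl-CoA into the branched units from which sterols and other isoprenoids are made. Its opening enzymes fell. ACAT2, which joins acetyl-CoA units, was at 60.002, 60.9 and 60.2 CPM in control and 45.5, 48.9 and 45.4 CPM in silenced samples. HMGCS1, the synthase that makes HMG-CoA, was at 101, 103 and 101 CPM in control and 78.3, 80.5 and 75.4 CPM in silenced samples. Replicates of HMGCS1 lay close together and the groups did not overlap, with a log2 fold change of −0.38 ± 0.04 (SE) and an adjusted p of 6.76e-07. The ACAT2 value is uncertain, since 26.5% of its exon bases lie opposite exons of SOD2, which itself fell (log2 fold change −0.84 ± 0.04), and whether counting used strand is not stated. Exons of SOD2-OT1 (33.9%) and TCP1 (9.23%) lie opposite ACAT2 as well, and an antisense gene lies opposite 15.0% of the exon bases of HMGCS1. The part of SOD2 reads in the ACAT2 result was not tested.

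PMVK and MVD, of the middle steps, rose. PMVK, the kinase that adds the second phosphate to mevalonate, was at 34.7, 34.2 and 39.4 CPM in control and 51.1, 46.0 and 49.3 CPM in silenced samples. Every silenced sample was above every control, and PMVK rose with a log2 fold change of 0.44 ± 0.06 and an adjusted p of 8.07e-06. MVD, the decarboxylase of the next step, rose by less (0.22 ± 0.06, adjusted p 0.00816), from 26.1 to 29.2 CPM in control to 29.3 to 33.1 CPM, and its call was lost without control replicate 2 (0.19, adjusted p 0.0673). MVK, the kinase just before PMVK, was at 20.1 to 21.1 CPM in control and 18.2 to 20.3 CPM in silenced samples. The MVK groups overlapped and the gene did not pass (−0.12 ± 0.06, adjusted p 0.147), although it did without IRF1shRNA replicate 2 (−0.16, adjusted p 0.0401).

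The last steps of this stretch were lower again. IDI1, the isomerase that makes dimethylallyl diphosphate, was at 63.5, 61.5 and 60.3 CPM in control and 44.4, 44.3 and 45.3 CPM in silenced samples. The silenced samples of IDI1 differed by about 1 CPM among themselves, and IDI1 fell by 0.47 ± 0.04 on the log2 scale (adjusted p 7.11e-08). FDPS, which joins these units into farnesyl diphosphate, fell to 76.4% of control (−0.39 ± 0.04, adjusted p 5.85e-07). The annotation names 8 FDPS pseudogenes that could share its reads. RUSC1-AS1 lies opposite 18.6% of FDPS exon bases and also fell, from 4.65 to 3.15 CPM (−0.57 ± 0.10). GGPS1, which diverts farnesyl diphosphate to protein prenylation instead of sterols, did not pass (0.04 ± 0.07, 95% confidence interval −0.10 to 0.18), and 37.3% of its exon bases lie in exons of TBCE on the same strand, so its count is uncertain.

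The first committed steps of the sterol branch went in opposite directions. FDFT1, squalene synthase, was at 235, 237 and 240 CPM in control and 152, 161 and 155 CPM in silenced samples. SQLE, squalene epoxidase and a rate-limiting enzyme of the pathway, was at 216, 217 and 209 CPM in control and 239, 243 and 239 CPM in silenced samples. FDFT1 thus fell to 65.8% of control (−0.60 ± 0.04, adjusted p 1.65e-09) while SQLE rose to 112% (0.17 ± 0.04, adjusted p 0.00186), both with no overlap of the groups. The ratio of SQLE to FDFT1 counts within a library, which does not depend on scaling, was 0.920, 0.916 and 0.870 in control and 1.58, 1.505 and 1.54 in IRF1shRNA samples. Per kilobase of merged exon, these were the most abundant of the 29 transcripts in control samples, SQLE at 49.7 and FDFT1 at 45.6 CPM per kb. After silencing SQLE was at 55.8 CPM per kb and FDFT1 at 30.004, below NSDHL (31.5), DHCR7 (30.2) and PMVK (38.1).

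**Figure D2:**
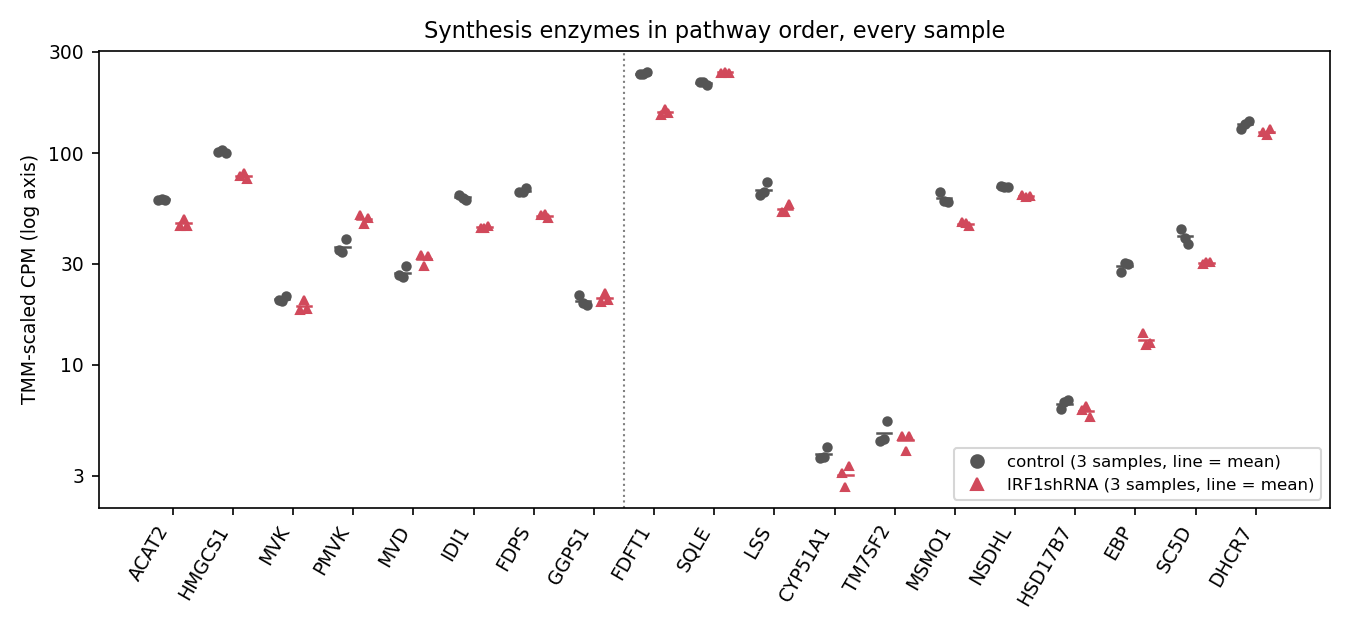
TMM-scaled CPM, on a log axis, of the 19 synthesis enzymes in pathway order in each of the 6 samples, with a line at each group mean and a dotted line between the early mevalonate pathway and the sterol branch. FDFT1 and EBP show the clearest separation downward, and PMVK and SQLE lie higher in every silenced sample.

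Among the enzymes that reshape lanosterol into cholesterol, EBP changed most. EBP (chrX:48521158-48528716, GRCh38, plus strand), the isomerase that shifts the double bond of the sterol ring, was at 27.6, 30.4 and 29.9 CPM in control and 14.1, 12.5 and 12.6 CPM in silenced samples. Its level was 44.7% of control, a log2 fold change of −1.16 ± 0.07 (adjusted p 2.50e-10). Of the 18851 genes tested, 661 had a larger fall in log2 fold change. MSMO1, which removes methyl groups from the ring, was at 65.3, 59.6 and 58.9 CPM in control and 47.3, 46.7 and 45.2 CPM in silenced samples, and fell by 0.40 ± 0.05 on the log2 scale. SC5D, the desaturase that acts after EBP, fell by 0.41 ± 0.06, and LSS, which closes squalene epoxide into lanosterol, by 0.31 ± 0.05, each with no overlap of the groups.

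The calls of the remaining enzymes of this branch were less stable or absent. NSDHL, which works with MSMO1 in demethylation, was at 69.4 to 69.6 CPM in control and 62.4 to 63.7 CPM in silenced samples. That fall of 0.15 ± 0.04 on the log2 scale passed (adjusted p 0.00546), but not under scaling by library size only (−0.095, adjusted p 0.0565). DHCR7, the reductase of the last step, passed narrowly (−0.12 ± 0.05, adjusted p 0.0329) and lost its call under 8 of 14 alternatives, among them each left-out library but control replicate 1 and IRF1shRNA replicate 3, and it was at −0.071 under library size only. CYP51A1, the lanosterol demethylase, was scarce at 3.80 ± 0.252 CPM in control and 3.03 ± 0.347 CPM in silenced samples. Its fall (−0.31 ± 0.11, adjusted p 0.0215) lost its call under library size only (−0.26) and without control replicate 3, IRF1shRNA replicate 1 or IRF1shRNA replicate 2 (adjusted p up to 0.0954). Its level is also uncertain, since 79.4% of its exon bases lie in exons of an overlapping gene on the same strand. TM7SF2 (−0.11 ± 0.10), a sterol reductase, and HSD17B7 (−0.12 ± 0.08), the ketoreductase of the demethylation steps, did not pass, with overlapping groups.

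The genes that control SREBP did not move together. SREBF1 was at 149, 150 and 186 CPM in control and 117, 113 and 129 CPM in silenced samples. SREBF2 was at 166, 173 and 186 CPM in control and 139, 140 and 150 CPM in silenced samples. Both fell with no overlap of the groups, SREBF1 by 0.43 ± 0.07 and SREBF2 by 0.29 ± 0.05 on the log2 scale (adjusted p 5.88e-05 and 7.88e-05), and control replicate 3 was the highest sample of both. SCAP, the escort of both factors, was at 71.7, 73.6 and 80.3 CPM in control and 102, 96.5 and 104 CPM in silenced samples. It rose in every silenced sample, by 0.42 ± 0.05 on the log2 scale (adjusted p 1.19e-06), and the ratio of SCAP to SREBF2 counts went from 0.429 ± 0.00413 to 0.704 ± 0.0254 (SD, n = 3 each).

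The INSIG pair, whose proteins both retain SCAP, differed in result. INSIG1, which is itself a target of SREBP, was at 109, 109 and 117 CPM in control and 90.4, 89.3 and 98.2 CPM in silenced samples, and fell by 0.27 ± 0.05 on the log2 scale (adjusted p 1.16e-04). INSIG2 was at 16.97, 15.3 and 16.97 CPM in control and 18.3, 18.8 and 16.4 CPM in silenced samples, and did not pass (0.12 ± 0.07, adjusted p 0.189). The ratio of INSIG1 to INSIG2 counts was between 6.45 and 7.14 in control and between 4.75 and 5.97 in IRF1shRNA samples, with no overlap. The difference between their fold changes was not tested.

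**Figure D3:**
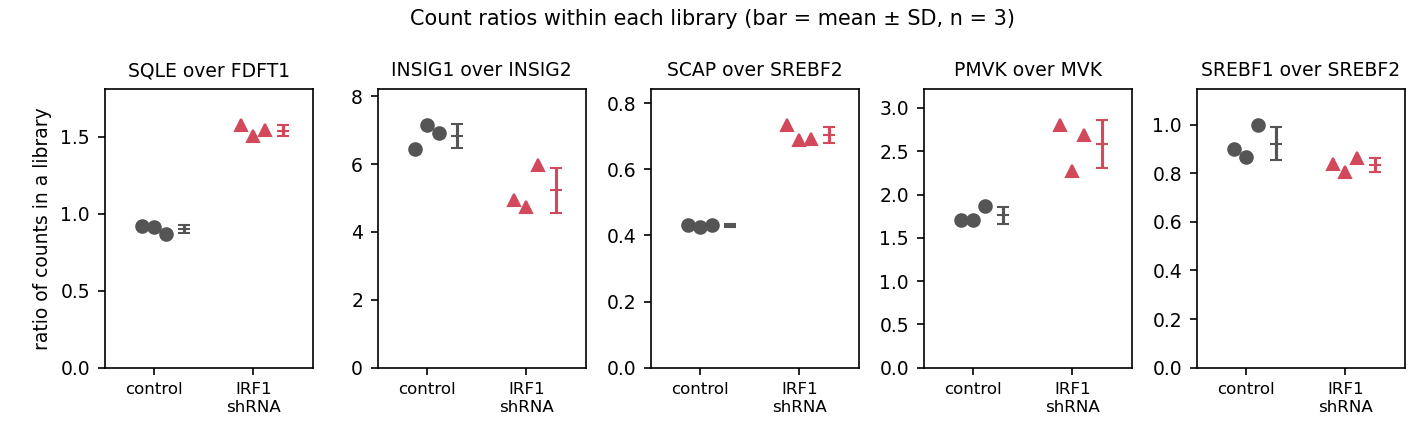
Ratios of the counts of 2 genes within each library for 5 pairs, with points for samples and bars for the mean ± SD (n = 3 per group). SQLE over FDFT1, SCAP over SREBF2 and PMVK over MVK are higher in all silenced samples, and INSIG1 over INSIG2 and SREBF1 over SREBF2 are lower. The ratios restate counts of genes described above and were not tested.

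STARD4 had the largest fall of the 27 tested genes. STARD4 (chr5:111496033-111512590, GRCh38, minus strand), a soluble carrier that moves cholesterol between membranes and is a known target of SREBP2, was at 67.8, 64.7 and 64.5 CPM in control and 23.5, 22.5 and 23.5 CPM in silenced samples. The groups were far apart and tight, at 65.6 ± 1.88 and 23.2 ± 0.606 CPM (± SD, n = 3), so that 35.3% of the control level was left. The log2 fold change was −1.50 ± 0.05 (95% confidence interval −1.60 to −1.40, adjusted p 1.12e-13), and 338 of the 18851 genes had a larger fall. It stayed between −1.51 and −1.45 over all 14 alternatives. STARD4-AS1, transcribed from the opposite strand over 2.18% of the exon bases of STARD4, fell as well, from 7.95 to 5.52 CPM (−0.53 ± 0.10, adjusted p 2.15e-04). The stretch before the start of STARD4 shown above holds 2 CCAAT boxes and no match to the interferon-regulatory factor element core. Of all promoter windows, 34.6% hold the first and only 3.57% the second, and the cause of the fall was not tested.

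Of the export and oxysterol genes, ABCA1, ABCG1 and CH25H were scarce in these cells, and MYLIP was more abundant. ABCA1, the transporter that loads cholesterol onto apolipoprotein, was at 2.30, 2.28 and 2.40 CPM in control and 1.53, 2.41 and 1.73 CPM in silenced samples. The shallow IRF1shRNA replicate 2 lay above all controls, and ABCA1 did not pass (−0.34 ± 0.15, adjusted p 0.0661), whereas without that library it did (−0.51, adjusted p 0.00443). ABCG1, the exporter to high-density lipoprotein, had 4 to 12 counts per library and was not tested. MYLIP was at 13.0, 11.04 and 12.6 CPM in control and 9.68, 8.16 and 9.95 CPM in silenced samples, and fell by 0.39 ± 0.09 on the log2 scale (adjusted p 0.00100) with no overlap of the groups. CH25H, cholesterol hydroxylase, had 10, 10 and 28 counts in control and 4, 0 and 0 counts in IRF1shRNA samples. It was too scarce to be tested in the main comparison. With no filter its adjusted p was 0.00163, from an edgeR fit that included all genes with any count. That fit gave much smaller values for some genes (SREBF1 1.78e-20, against 5.88e-05 in the main fit) and larger ones for others (NSDHL 0.011, against 0.00546). The CH25H value is therefore not comparable with the adjusted p of the main fit. Mates also appear to have been counted separately, so the CH25H counts stand for fewer fragments. Such counts are near the limit of 3 counts taken as detected, which corresponds to 0.0182 to 0.0540 CPM.

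**Figure D4:**
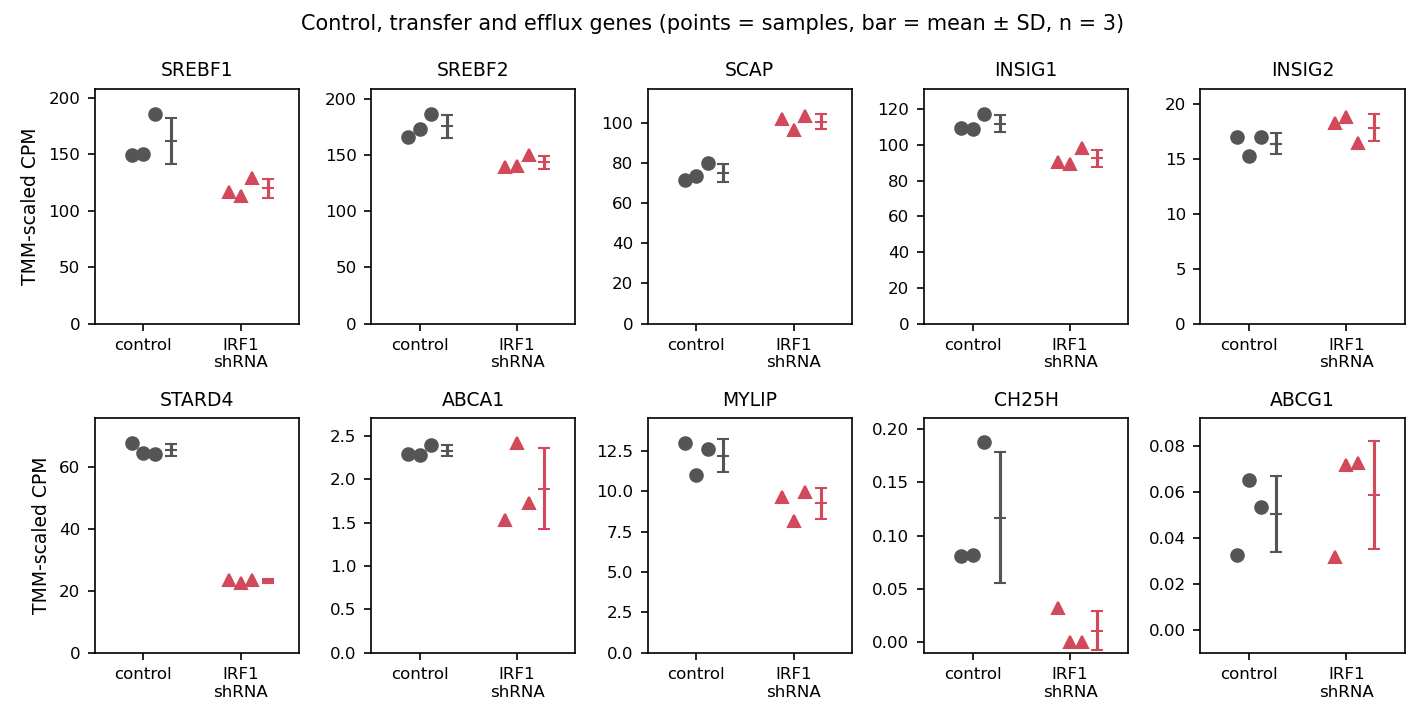
TMM-scaled CPM of the 5 SREBP control genes, STARD4 and the 4 export and oxysterol genes, with points for samples and bars for the mean ± SD (n = 3 per group). STARD4 drops from about 65.6 to 23.2 CPM, SCAP is higher in all silenced samples, and CH25H and ABCG1 stay under 0.2 CPM.

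Other genes of the pathway were read from 6 further lists, of which 59 of 60 genes were tested, 16 rose and 30 fell. These are 27.1% and 50.8% of the tested genes, against 24.1% and 26.4% of all genes, or 29.9% and 36% of genes in the abundance range of the synthesis enzymes. Some listed genes lie outside that range, among them ACLY, FASN, ELOVL5, SCD and FADS2 of fatty acid synthesis, which lie above it. Of the genes of fatty acid synthesis that SREBP drives, 11 of 13 fell (84.6%, against 26.4% of all genes and 36% in that range), with a median log2 fold change of −0.41. ACACA and FADS1 were the other two (0.03 and −0.01). Those with the smallest adjusted p were FADS2 (−1.10 ± 0.05), a desaturase of polyunsaturated fatty acids, ACSL3 (−0.54 ± 0.04), which activates fatty acids, and SCD (−0.73 ± 0.06), which makes monounsaturated ones. SCD was at 1408, 1445 and 1577 CPM in control and 816, 942 and 920 CPM in silenced samples.

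Another list holds genes that handle cholesterol after uptake. Of the 11 genes of lysosomal release, transfer and esterification, 8 fell (72.7%, against 26.4% of all genes) and 2 rose (18.2%, against 24.1%). In the abundance range of the synthesis enzymes, 36% of genes fell and 29.9% rose. NPC2, which carries cholesterol out of the lysosome, was at 86.9, 92.5 and 99.1 CPM in control and 45.4, 45.3 and 44.3 CPM in silenced samples (−1.05 ± 0.05), and LIPA, the lysosomal lipase that frees cholesterol from its esters, fell by 0.57 ± 0.04 on the log2 scale. NCEH1, a hydrolase of stored cholesterol esters, rose instead, from 124, 134 and 111 CPM to 254, 254 and 235 CPM (1.01 ± 0.06). All 5 genes of the lipoprotein receptor list, which includes the receptor chaperone LRPAP1 (0.29), passed, 2 higher and 3 lower. Of all genes 50.5% passed, and of genes in that range 66%. SCARB1, a receptor for high-density lipoprotein, fell by 0.80 ± 0.06 and LRP8 by 0.56 ± 0.04, while VLDLR rose by 0.41 ± 0.05.

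A further list covers genes whose proteins process SREBP or pass on its feedback. Of its 9 genes, 6 rose (66.7%, against 24.1% of all genes and 29.9% in that range) and 3 did not pass, with estimates between −0.07 and −0.06 for these, and the median log2 fold change was 0.30. SPRING1, a partner of SCAP listed under the older symbol C12orf49, was at 41.3, 43.6 and 39.3 CPM in control and 67.8, 66.5 and 69.4 CPM in silenced samples (0.72 ± 0.05). RNF139, a ubiquitin ligase of the sterol-sensing complex, rose by 0.38 ± 0.04. SCAP, described above, is not in this list and also rose.

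Of the 10 tested genes of LXR and oxysterol metabolism, 3 rose and 4 fell, shares of 30% and 40% that lie near the 29.9% and 36% in that range. NR1H3, CYP46A1 and CYP27A1 lie below that range, so it does not match this list in abundance. NR1H3, which encodes LXR alpha, was at 0.990, 0.849 and 1.01 CPM in control and 2.41, 2.52 and 2.95 CPM in silenced samples (1.47 ± 0.14). The LXR target PLTP (−0.78 ± 0.07), a phospholipid transfer protein, fell, the same direction as MYLIP and SREBF1. CYP46A1, which converts cholesterol to an oxysterol and was chosen after its values were seen, rose from 0.531 ± 0.0183 to 1.70 ± 0.282 CPM (1.66 ± 0.18). Among the 11 genes that use isoprenoids, 3 rose and 4 fell (27.3% and 36.4%), again near those background shares. NUS1 (0.49 ± 0.04) and DHDDS (0.45 ± 0.04), the partner subunits that build the dolichol chain, rose together, whereas DOLK (−0.78 ± 0.07), the kinase that completes dolichol phosphate, fell.

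**Figure D5:**
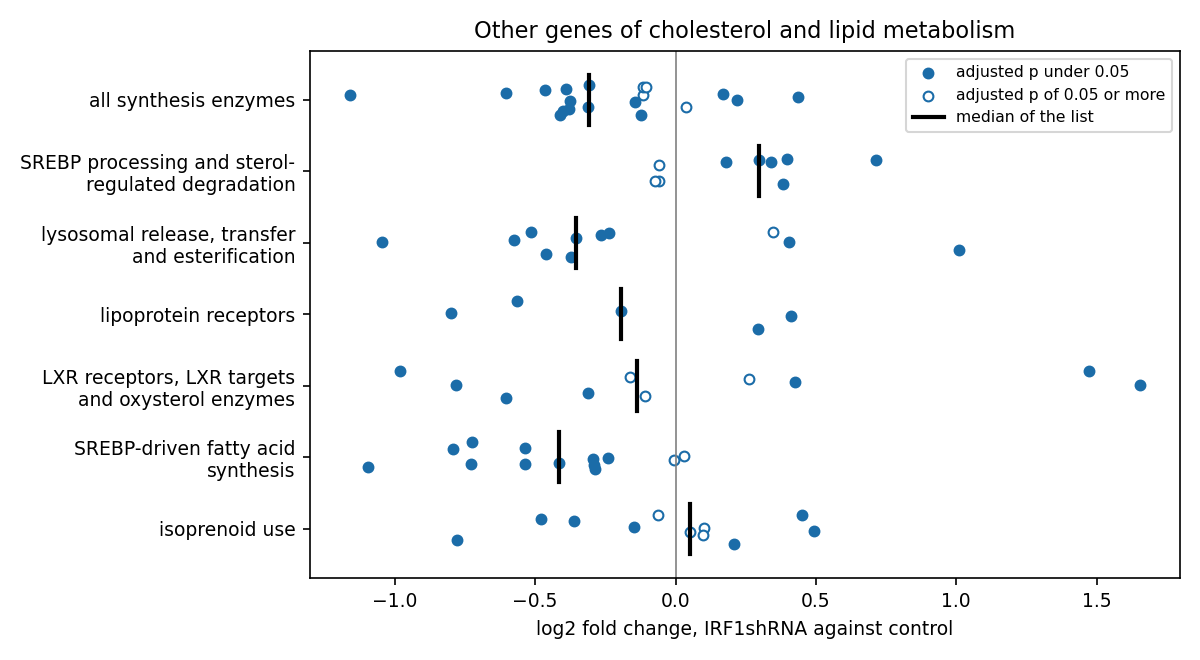
Log2 fold change of IRF1shRNA against control for each tested gene of the synthesis enzymes and of the 6 further lists, with a black bar at each list median and open circles for an adjusted p of 0.05 or more. The filled points of the fatty acid list all lie below 0, with a list median of −0.41, and the filled points of the SREBP processing list all lie above 0.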

How the data were processed

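RNA-seq libraries (TruSeq Stranded mRNA) were made from 6 BT-549 cultures. The authors deposited unnormalized counts, 1 row for each gene symbol. Per the labels, the submitters' processing notes name CASAVA 1.8.2, STAR 2.7.9a, featureCounts, DESeq2 1.24.0 and the build GRCh38.p7. The annotation release and strand setting are not given in the sources used here, so overlapping and antisense genes are uncertain. Among values of 2 to 11 counts, 72.1% to 75.2% per sample were even, so mates appear to have been counted separately. Columns were matched to samples by title. Nothing beyond the labels says how the triplicate cultures were separated, so p-values measure the spread between these samples.

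Counts were analysed with edgeR 4.0.16 (R 4.3.3), with TMM scaling, filterByExpr at a minimum count of 10, the quasi-likelihood test with group as single factor, and Benjamini-Hochberg adjustment over 18851 genes. Standard errors are the log2 fold change divided by the square root of F. Exon lengths, loci and overlaps came from GENCODE 29 (GRCh38), with exons of all transcripts merged. On simulated counts for this comparison, 200 of 18851 genes, drawn at any abundance, were changed. Of these, 64 of 100 changed by 0.5 on the log2 scale and 82 of 100 changed by 1 were recovered, with 7 false calls. In the data 50.5% of genes passed, far more than were changed here. The recovered shares therefore do not give the sensitivity for the cholesterol genes. Alternatives were DESeq2 1.42.0, other scalings and filters, each replicate left out, the replicate number as a block, halved counts and, for counts of genes, a threshold of 0.01. All 29 genes were to be named, with IRF1 and the 3 genes of smallest adjusted p in each further list. Some of the latter are not reported here. The 29 genes and the further lists were chosen by role, with earlier results of these data known, and lists are described by counts and medians with no test. Floors of 3 counts cover counting error only.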

Additional observations from a re-analysis of the deposited data

How the results depend on the processing

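Of the 29 cholesterol genes, between 14 (library size only) and 19 (no filter) fell and 3 or 4 rose over the alternatives. The 2 further falls with no filter were those of ABCA1 and CH25H. CH25H is also counted among the 18 falls under DESeq2, and in some fits with a library left out. The medians of the 27 genes and of the synthesis enzymes both moved from −0.31 to −0.26 under library size only, and also under upper quartile scaling. Over all genes tested the median was −0.0024, and 0.049 and 0.041 under these scalings. Each fit with 1 library left out filtered the genes anew, so CH25H entered some of its medians. These were −0.35 to −0.24 for all members tested, −0.36 to −0.24 for the synthesis enzymes and −0.36 to −0.24 for the sterol branch. For the export and oxysterol genes they were −0.51 to −0.34, which is not the range of ABCA1 and MYLIP alone. In the same fits GGPS1 ranged from −0.00086 to 0.083 and TM7SF2 from −0.16 to 0.0041, each changing sign once without being called, GGPS1 without IRF1shRNA replicate 2 and TM7SF2 without control replicate 3. ABCA1 also passed with no filter (−0.34) and with halved counts (−0.38). DHCR7, CYP51A1, NSDHL, MVD, MVK and ABCA1 were the tested members whose call changed under any alternative, and the causes were not tested.

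With the replicate number as a block, 17 members fell and 4 rose, IRF1 was at −1.74, and no member changed its call. The deviations of same-numbered samples from their group means correlated at 0.0137, 0.0250 and −0.0072 over all genes for numbers 1 to 3. On these values the numbers were not taken as a pairing. Over the tested members alone the correlations were −0.084, 0.344 and 0.491, against −0.409 to 0.233 between samples of different numbers. At this depth ABCG1 and CH25H did not reach the filter on low counts in the main fit.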
